A study of Homo sapiens with 4 samples.

Results

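The interferon-induced IFIT and IFITM antiviral families were followed through their 7 members IFIT1, IFIT2, IFIT3, IFIT5, IFITM1, IFITM2 and IFITM3, which were found by gene symbol among the 58735 genes of 1 count table. The members were chosen from their measured values in the comparison of shZDHHC15 with shCON, so every value of theirs in that comparison is given as a description, and a call by the fit is no evidence for them. RNA was sequenced from 4 samples of HCC1954, a human breast carcinoma cell line with amplified ERBB2 (HER2). The shCON group (n = 2) carried a scrambled short hairpin RNA, and the shZDHHC15 group (n = 2) carried a hairpin against ZDHHC15, a palmitoyltransferase that attaches the fatty acid palmitate to cysteines of target proteins. Both groups received GIPZ hairpin vectors, and no sample without a hairpin was among the 4. The labels describe the knockdown as stable in the design and as a transient transfection, harvested after 36 h, in the treatment protocol. The sources used here do not say whether shZDHHC15 1 and 2 carried different hairpins or whether the samples came from separate cultures, so the spread between samples may be technical. The methods of the study mention that single-clone cultures were screened for hairpin effect by western blot, so a group may stand for 1 clone.

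IFIT proteins are cytosolic, built from tetratricopeptide repeats, and bind RNA whose start looks foreign or bind the translation factor eIF3, which holds back translation of viral RNA. IFITM proteins are small membrane proteins that hinder the fusion of viral and cellular membranes at entry, and they are themselves S-palmitoylated on cysteines near the membrane by several ZDHHC enzymes. Both families are textbook interferon-stimulated genes: interferon receptors activate the JAK kinases, STAT proteins join IRF9 in the complex ISGF3, and ISGF3 binds the interferon-stimulated response element (ISRE) of its target promoters. The counts measure RNA and hold no information on palmitoylation or protein.

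The 4 IFIT members lay side by side on the forward strand of chromosome 10 within 137.3 kb (GRCh38), in the order IFIT2 (ENSG00000119922, chr10:89283694-89309276), IFIT3 (ENSG00000119917, chr10:89327894-89340971), IFIT1 (ENSG00000185745, chr10:89392546-89406486) and IFIT5 (ENSG00000152778, chr10:89414586-89421001). The 3 IFITM members lay within 19.91 kb of chromosome 11, with IFITM2 (ENSG00000185201, chr11:307631-315272) and IFITM1 (ENSG00000185885, chr11:313506-315272) on the forward strand and IFITM3 (ENSG00000142089, chr11:319669-327537) on the reverse strand.

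Promoters are shown because the ISRE is the element through which both families are known to be switched on, and because the choice of the members did not use sequence. RefSeq promoters (GRCh38.p14, 250 bases before to 50 bases after a transcription start) were matched by symbol for 5 of the 7 members, with 2 starts for IFIT3. IFIT2 and IFITM2 had no entry in the table. Each line gives 170 bases in the direction of the gene, from 160 bases before the start to 10 bases after it, and the capitals mark the ISRE core, which is GAAA, any 2 bases, GAAA, or the same on the other strand (TTTC, any 2 bases, TTTC).
IFIT1: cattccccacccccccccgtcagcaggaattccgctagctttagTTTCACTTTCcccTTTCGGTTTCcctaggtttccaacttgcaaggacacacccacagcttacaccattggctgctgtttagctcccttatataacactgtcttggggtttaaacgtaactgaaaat
IFIT3 start 1: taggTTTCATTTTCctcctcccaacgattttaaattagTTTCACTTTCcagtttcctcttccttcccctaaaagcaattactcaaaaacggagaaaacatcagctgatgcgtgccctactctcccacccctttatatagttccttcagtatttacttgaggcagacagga
IFIT3 start 2: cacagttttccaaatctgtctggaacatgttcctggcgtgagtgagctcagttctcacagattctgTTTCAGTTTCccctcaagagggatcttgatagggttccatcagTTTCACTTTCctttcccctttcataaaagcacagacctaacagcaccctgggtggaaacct
IFIT5: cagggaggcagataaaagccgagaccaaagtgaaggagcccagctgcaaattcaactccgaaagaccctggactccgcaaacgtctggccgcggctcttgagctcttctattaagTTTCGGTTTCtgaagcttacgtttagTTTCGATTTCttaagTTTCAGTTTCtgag
IFITM1: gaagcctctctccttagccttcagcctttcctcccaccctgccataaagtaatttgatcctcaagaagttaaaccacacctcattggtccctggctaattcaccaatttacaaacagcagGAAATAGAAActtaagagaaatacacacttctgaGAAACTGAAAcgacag
IFITM3: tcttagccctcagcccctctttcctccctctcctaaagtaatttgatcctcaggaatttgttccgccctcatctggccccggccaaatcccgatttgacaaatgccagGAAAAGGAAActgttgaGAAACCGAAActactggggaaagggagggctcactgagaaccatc
The windows were chr10:89327837-89328006 and chr10:89332369-89332538 for IFIT3 starts 1 and 2, chr10:89392463-89392632 for IFIT1, chr10:89414408-89414577 for IFIT5 and chr11:313880-314049 for IFITM1, all on the forward strand, and chr11:320851-321020 on the reverse strand for IFITM3.

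All 6 promoters held at least 2 ISRE cores, 13 in all, against 3.57% of the 35116 promoters in the table with at least 1 core (1255 promoters) and 0.259% with at least 2 (91 promoters). The arrangement differed between the families. Positions are counted from the transcription start at +1, with −1 the base before it. In the IFIT promoters every core read on the strand opposite to the gene, at −116 to −107 and −103 to −94 in IFIT1 and at −156 to −147 and −122 to −113 for the first start of IFIT3. The second start of IFIT3 had cores at −94 to −85 and −51 to −42. IFIT5 had 3 cores, at −45 to −36, at −19 to −10 and across the start from −4 to 6. In the IFITM promoters the cores read on the strand of the gene, at −52 to −43 and −35 to −26 in IFITM3, and at −40 to −31 and across the start from −6 to 4 in IFITM1. The gamma-activated sequence (TTC, any 3 bases, GAA), an element known from genes induced by interferon gamma, was found in 1 of the 6 promoters, that of IFITM1 at −12 to −4, and in 7.66% of all promoters. Among tested genes other than members, 6.61% of the 2465 with a promoter that were higher in shZDHHC15 held an ISRE core, against 2.76% of the 2393 that were lower and 3.33% of the 5880 that were not called. For the 219 genes higher by more than 2 on the log2 scale the share was 17.8%. The matching share for genes lower by more than 2 was not computed, so this cut shows 1 direction only. These are matches of letters and do not show binding. Both families are textbook interferon-stimulated genes, so ISRE cores in their promoters could be foreseen and are no separate evidence. The part of the ISRE in the differences between the groups was not tested.

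**Figure D1:**
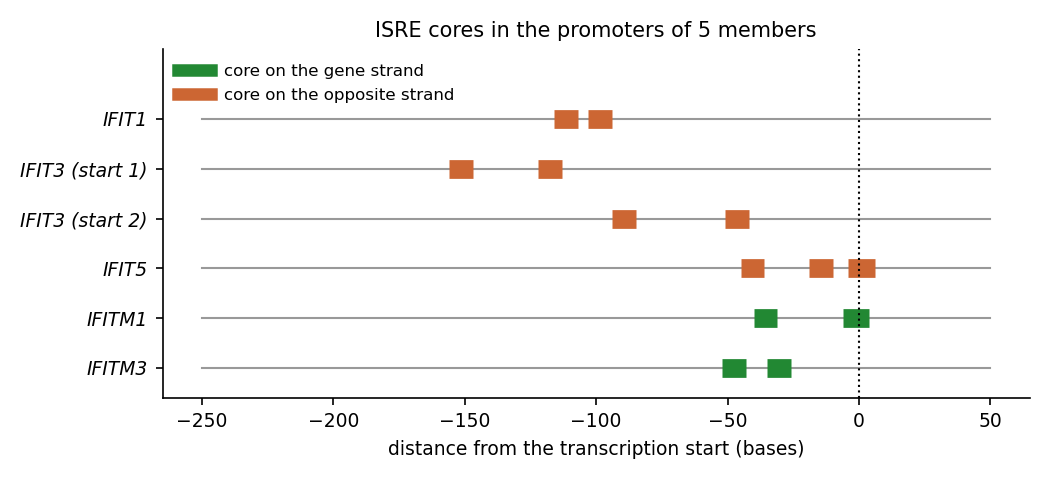
Positions of ISRE cores (thick bars) in 6 promoters of 5 members, in bases from the transcription start (dotted line), over the searched window from 250 bases before to 50 bases after it. Green bars read on the strand of the gene (IFITM1 and IFITM3) and orange bars on the opposite strand (IFIT1, IFIT3 and IFIT5), and each promoter holds 2 or 3 cores.

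The libraries held 17560982 to 19118704 counts each, and 15817 genes passed the filter on low counts and were tested with edgeR, which called 3427 higher in shZDHHC15 (21.7% of tested genes) and 3217 lower (20.3%) at an adjusted p under 0.05. The targeted gene ZDHHC15 (ENSG00000102383) had 17617 and 15716 counts in shCON and 0 in both shZDHHC15 samples, which is at least 5890-fold lower against a floor of 3 counts per library. A complete loss of counts is unusual for a hairpin, which as a rule leaves some transcript, and its cause was not tested. ERBB2 stood at 5760 ± 240.5 CPM (read counts scaled to library size by TMM factors) in shCON and 4876 ± 224.6 CPM in shZDHHC15 (mean ± SD, n = 2), and all 8 epithelial and HER2 markers were detected, of which 6 were lower, 1 was higher, and their sum ranged from 19470 to 21000 CPM in shCON and from 11740 to 11960 CPM in shZDHHC15. Of 12 leukocyte markers, CD3D, CD3E, CD2 and MS4A1 had 0 counts in all 4 samples, PTPRC had 1 to 4 counts, and 1 (CD14) was tested and higher. The leukocyte markers summed to 1.42 to 1.59 CPM in shCON and 2.14 to 2.74 CPM in shZDHHC15, which leaves leukocyte RNA near 0 in both groups. Fibroblast markers (2 of 8 tested, 1 higher) summed to 26.2 to 33.1 CPM in shCON and 37.1 to 41.0 CPM in shZDHHC15. LUM was at 0 in all samples. Endothelial markers (3 of 6 tested, 2 higher and 1 lower) summed to 57.7 in both shCON samples and 102 to 108 CPM in shZDHHC15. These sums came mostly from FAP (means of 23.12 CPM in shCON and 28.98 in shZDHHC15) and CDH5 (45.25 and 70.75). PECAM1 was at 3.717 and 28.2 CPM and KDR at 7.947 and 5.116. VWF, TEK and CLDN5 had at most 7 counts per sample. The part of either cell type in the results below was not tested. In such bulk samples, fewer cells with a transcript and less of it per cell cannot be told apart.

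All 7 members were higher in both shZDHHC15 samples than in both shCON samples, and all 7 passed the filter on low counts, with at least 133 counts in every sample. Over all tested genes, 37.2% lay with both shZDHHC15 samples above both shCON samples, and since the members were chosen on this contrast nothing is read from their count. The edgeR fit called 7 of 7 higher, beside 21.7% of all tested genes, and from this count, too, nothing is read. Their median log2 fold change was 3.04 (8.23-fold), with 4.30 (19.6-fold) over the 4 IFIT members and 1.83 (3.55-fold) over the 3 IFITM members, against a median of 0.015 over all tested genes. Summed over the 7 members, the level was 361 and 377 CPM in the shCON samples and 2499 and 1966 CPM in the shZDHHC15 samples, which is 0.0356% and 0.0362% of all counts in shCON and 0.256% and 0.202% in shZDHHC15.

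IFIT1 binds capped RNA that lacks ribose methylation next to the cap. It was at 12.3 and 11.6 CPM in shCON and at 306 and 237 CPM in shZDHHC15. The groups were far apart, with the lower shZDHHC15 sample 19.2-fold above the higher shCON sample, and the fitted log2 fold change was 4.50 ± 0.142 (SE). IFIT3 binds IFIT1 and steadies its hold on RNA. It was at 13.6 and 12.9 CPM in shCON and 355 and 260 CPM in shZDHHC15. These values lay near those of IFIT1 before scaling to gene length, whereas per kilobase IFIT3 stood above IFIT1 in both groups. Its log2 fold change was 4.53 ± 0.152 (SE), and the gap between the groups was again 19.2-fold. The difference between IFIT3 and IFIT1 was smaller than either standard error. In the order of all tested log2 fold changes they stood at ranks 43 and 44.

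IFIT2, which forms complexes with IFIT1 and IFIT3 and has been linked to cell death, was at 12.8 and 12.3 CPM in shCON and at 257 and 171 CPM in shZDHHC15. Its log2 fold change was 4.09 ± 0.175 (SE), rank 62, and it had the widest spread of the 7 members within shZDHHC15, where sample 1 was 1.51-fold above sample 2. The groups stayed 13.3-fold apart. IFIT5, which binds RNA with a triphosphate at its start and acts without the others, was the lowest member and changed least of its family. It was at 7.84 and 7.89 CPM in shCON and at 58.7 and 50.3 CPM in shZDHHC15, a log2 fold change of 2.79 ± 0.141 (SE), rank 167.

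IFITM1 sits mostly at the plasma membrane. It was at 62.9 and 59.1 CPM in shCON and at 558 and 446 CPM in shZDHHC15, a log2 fold change of 3.04 ± 0.117 (SE), rank 140, with the groups 7.09-fold apart. IFITM3, the endosomal member best known for restricting influenza virus, was the most abundant of the 7 in every sample. It was at 223 and 240 CPM in shCON and at 895 and 747 CPM in shZDHHC15, which placed it 824th by mean CPM among tested genes in shCON and 117th in shZDHHC15. Its log2 fold change was 1.83 ± 0.102 (SE). In CPM it gained the most of the 7 members, from 231 ± 11.9 to 821 ± 105 (mean ± SD, n = 2), although its fold was among the smaller ones.

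IFITM2, which also works in endosomes, changed least of the 7. It was at 28.9 and 33.3 CPM in shCON and at 69.0 and 55.7 CPM in shZDHHC15, a log2 fold change of 1.00 ± 0.128 (SE), rank 1348. The lower shZDHHC15 sample was 1.67-fold above the higher shCON sample, the narrowest gap among the members. The exons annotated to IFITM2 overlap those of IFITM1 on the same strand over 351 bases, 22.7% of IFITM2 and 32.5% of IFITM1, because 1 transcript of IFITM2 runs on to the end of IFITM1. How the counting shared reads in this stretch is not given in the sources used here. The gain of IFITM2 (31.2 CPM) came to 7.08% of the gain of IFITM1 (441 CPM), and the part of the shared stretch in it was not tested.

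**Figure D2:**
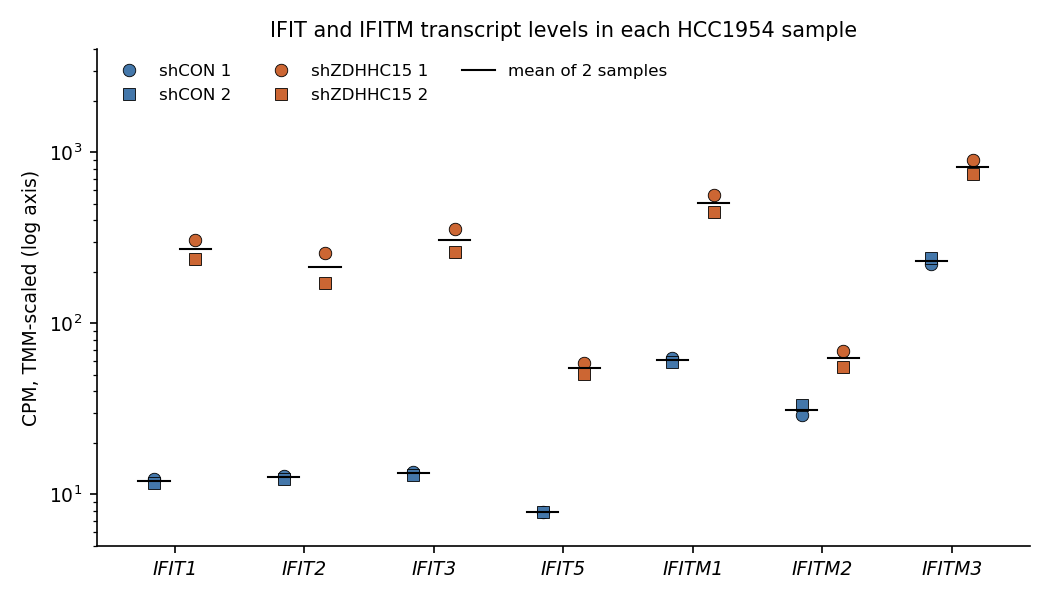
CPM of each member in the 2 shCON samples (blue) and the 2 shZDHHC15 samples (orange) on a log axis, with circles for sample 1, squares for sample 2 and a black line at the mean of 2. No member's groups overlap, the IFIT members start near 10 CPM and IFITM3 is the highest in each sample.

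**Figure D3:**
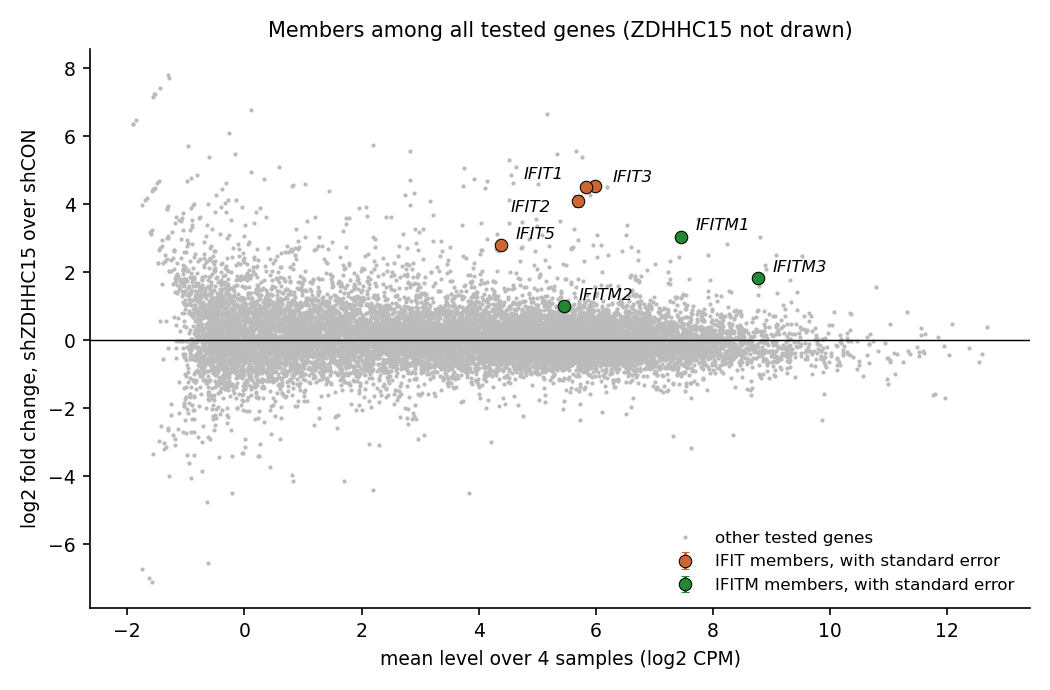
Log2 fold change of shZDHHC15 over shCON (vertical) against the mean level over 4 samples in log2 CPM (horizontal) for all tested genes but ZDHHC15 (grey) with IFIT members in orange and IFITM members in green. Error bars are standard errors, mostly smaller than the symbols, and the members run from 1.00 (IFITM2) to 4.53 (IFIT3).

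Within shZDHHC15, sample 1 was above sample 2 for all 7 members, by a median of 0.324 on the log2 scale, whereas sample 1 was above sample 2 for 51.9% of all tested genes and for 73.3% of the genes called higher. In shCON, 4 of 7 members were higher in sample 1. The coefficient of variation over the 2 samples ran from 0.368% (IFIT5) to 10.0% (IFITM2) in shCON and from 10.9% (IFIT5) to 28.6% (IFIT2) in shZDHHC15. For every member, the shZDHHC15 samples were farther apart than the shCON samples on this measure.

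To compare levels between genes, CPM was divided by the length of each gene's merged exons in kilobases. In shCON the order was IFITM3 (171.5 ± 8.85 CPM per kb), IFITM1 (56.5 ± 2.53), IFITM2 (20.2 ± 2.02), IFIT3 (5.01 ± 0.167), IFIT2 (3.07 ± 0.0870), IFIT1 (2.59 ± 0.120) and IFIT5 (1.96 ± 0.00721), all as mean ± SD of 2 samples, and no neighbours in this order had overlapping ranges. The IFIT members rested on 133 to 247 counts per shCON sample, and 2 close samples can understate counting error. The order of close neighbours such as IFIT2 and IFIT1 is therefore not firm. In shZDHHC15 the order was IFITM3 (609 ± 77.7 CPM per kb), IFITM1 (465 ± 73.5), IFIT3 (116 ± 25.5), IFIT1 (58.9 ± 10.5), IFIT2 (52.2 ± 14.9), IFITM2 (40.4 ± 6.09) and IFIT5 (13.6 ± 1.48). There the ranges of IFIT1 and IFIT2 overlapped, as did those of IFIT2 and IFITM2. IFITM2 thus moved from the third place, above every IFIT member in shCON, to a place below IFIT3 and IFIT1 in shZDHHC15.

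The make-up of each family therefore differed between the groups. Of the summed IFIT level per kb, IFIT3 made up 39.7% ± 0.14 in shCON and 48.2% ± 0.071 in shZDHHC15 (mean ± SD, n = 2). The share of IFIT5 was 15.6% ± 0.49 in shCON and 5.7% ± 0.62 in shZDHHC15, the one large loss of share in that family. IFIT1 held 20.6% ± 0.35 and 24.5% ± 0.92, and IFIT2 held 24.3% and 21.5% ± 1.6. Of the summed IFITM level, IFITM1 made up 22.8% ± 1.8 in shCON and 41.7% ± 0.71 in shZDHHC15. IFITM3 went the other way, with 69.1% ± 1.3 and 54.7% ± 0.71, and IFITM2 held 8.12% ± 0.54 and 3.62% ± 0.035. Shares follow from the fold changes above and are no separate evidence.

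**Figure D4:**
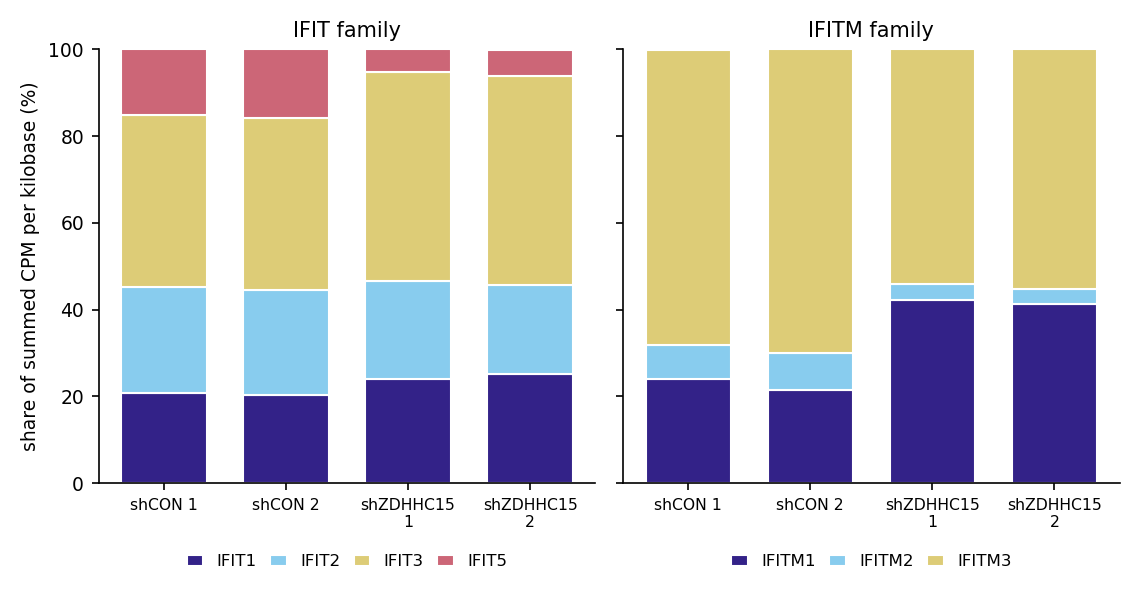
Share of each member in its family's summed CPM per kilobase (vertical, percent) in each of the 4 samples, with the IFIT family on the left and the IFITM family on the right. The IFIT5 share is smaller and the IFITM1 share larger in both shZDHHC15 samples, and the samples of a group look alike.

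Members of gene families can share reads. Of the different 50-base words in the transcripts of each gene, 1.02% for IFIT1, 7.91% for IFIT2, 3.64% for IFIT3 and 0 for IFIT5 also occurred in another annotated gene. For IFITM1, IFITM2 and IFITM3 the shares were 32.0%, 34.3% and 35.2%. IFITM1 shared 29.4% of its words with IFITM2 and 9.18% with IFITM3. IFITM3 shared 17.7% with AC136475.5, which is no member, 14.0% with IFITM2 and 7.3% with IFITM1. With 100-base words, IFITM1 shared 25.5% with IFITM2, and IFITM3 shared 3.13% with IFITM1 and 1.56% with IFITM2. The split of reads is thus less certain among the IFITM members than among the IFIT members, mainly between IFITM1 and IFITM2. Of the IFIT2 exon bases, 8.68% overlap AL353751.1 on the same strand, which had 3 to 7 counts per sample, and 1.58% overlap LIPA on the opposite strand. IFITM3 overlaps AC136475.5 on the opposite strand over 21.3% of its exon bases, and that gene had 0 counts in all samples. Reads of the same-strand pair cannot be told apart in the shared stretch under any strand setting, and those of the opposite-strand pairs cannot unless counting used the strand.

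Paralogues outside the 7 members, other than IFITM10, stayed near the floor. IFIT1B had 0 to 3 counts per sample, the pseudogene IFIT1P1 had 0 in shCON and 3 and 4 in shZDHHC15, and the bone gene IFITM5 had at most 1 count. IFITM10 was the single paralogue that could be tested, with 16 and 26 counts in shCON and 32 and 37 in shZDHHC15, and it did not pass the edgeR test (log2 fold change 0.59 ± 0.370 SE, adjusted p = 0.22).

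The genes beside the members, chosen by position alone within 100 kb of each locus, are given next. Of 21 neighbours of the IFITM locus, 8 were tested, of which 2 were higher, 2 lower and 4 not called. Over all tested genes, 21.7% were higher and 20.3% lower, and nothing is read from the counts of neighbours. PGGHG (a glucosidase of hydroxylysine sugars, log2 fold change 0.63 ± 0.188 SE, adjusted p = 0.0146) and ANO9 (a TMEM16 family membrane protein, 0.82 ± 0.183 SE, adjusted p = 0.0022) were higher. RIC8A (a chaperone of G protein alpha subunits, −0.49 ± 0.0949 SE, adjusted p = 7.59e-04) and the desmosome gene PKP3 (−0.32 ± 0.0924 SE, adjusted p = 0.0119) were lower. SIRT3 (0.04), PSMD13 (−0.19), B4GALNT4 (0.04) and SIGIRR (−0.06) did not pass the test. None of the 8 had a log2 fold change as large as that of IFITM2, the smallest among the members. Since the members were chosen for their values in this contrast, that difference is a description only.

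Of 7 neighbours of the IFIT locus, only LIPA was tested. LIPA encodes lysosomal acid lipase, is read from the reverse strand and spans IFIT2, IFIT3 and IFIT1 in its annotated extent. It had 763 and 745 counts in shCON and 2662 and 2390 in shZDHHC15, which do not overlap, and it rose from 43.0 ± 1.64 to 132 ± 15.0 CPM (mean ± SD, n = 2) with a log2 fold change of 1.62 ± 0.110 SE (edgeR adjusted p = 3.27e-08). Its exons share 65 bases with IFIT2 on the opposite strand, and CH25H, on its far side, had 0 counts in every sample.

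The pathway that switches these families on was followed from ligand to effector with 9 lists of 102 genes in all. The lists were written from general knowledge with earlier results of these data known, so their counts are a description and no separate evidence. Of the 102 genes, 101 were in the table and 73 were tested. Of those tested, 41 were higher, 3 lower and 29 not called, beside 21.7% higher and 20.3% lower over all tested genes. The same shares over all tested genes stand beside the count of each list below. Interferon genes themselves were almost silent. Of 21 ligand genes, 15 had 0 counts in all 4 samples and 2 were tested. IFNL1, a type III interferon, had 5 and 2 counts in shCON and 12 and 15 in shZDHHC15 (log2 fold change 1.79 ± 0.637 SE, edgeR adjusted p = 0.0347). IFNE, with 9 and 5 against 13 and 11 counts, did not pass (adjusted p = 0.378). IFNB1, the interferon that non-immune cells make first, had 1 and 0 counts in shCON and 4 and 3 in shZDHHC15, too few for the test.

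Of 6 receptor chains, 5 were tested and 4 were higher. These were the type I chain IFNAR1 by 0.32 ± 0.104 SE (adjusted p = 0.0217), the type II chains IFNGR1 by 0.93 (adjusted p = 5.29e-06) and IFNGR2 by 1.18 (adjusted p = 5.21e-07), and the type III chain IFNLR1 by 1.27 ± 0.239 SE (adjusted p = 6.44e-04), all on the log2 scale. IFNAR2 had a log2 fold change of 0.71 ± 0.309 SE and did not pass (adjusted p = 0.0776). IL10RB, the other chain of the type III receptor, had 5 to 10 counts per sample and was not tested.

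Of the 11 genes that carry the signal, 8 were higher and none was lower, with a median log2 fold change of 1.05. The ISGF3 subunits STAT2 and IRF9 were among the higher ones. STAT2 went from 52.8 ± 2.98 to 197 ± 6.65 CPM (log2 fold change 1.90 ± 0.0993 SE, adjusted p = 1.66e-09), and IRF9 from 2.47 ± 0.388 to 9.10 ± 1.55 CPM (1.88 ± 0.236 SE, adjusted p = 1.93e-05). IRF7, which amplifies interferon production, was higher by 1.78 (adjusted p = 5.94e-09). TYK2 (0.16), IRF3 (−0.22) and IRF5 (−0.05) did not pass the test, with adjusted p of 0.225, 0.0945 and 0.853.

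Of 8 feedback inhibitors, 3 were higher: the ubiquitin-like ISG15 (log2 fold change 3.55 ± 0.125 SE, adjusted p = 2.42e-11), USP18, which strips ISG15 from proteins and blocks IFNAR2 (3.47 ± 0.141 SE, adjusted p = 1.18e-10), and SOCS3 (0.40 ± 0.133 SE, adjusted p = 0.0243). The list's median was 0.30. Of 10 sensors of foreign RNA and DNA and their adaptors, 8 were higher and 1 lower, with a median of 1.41. The cytosolic RNA sensors led the list, DHX58 (LGP2) by 3.61 ± 0.214 SE (adjusted p = 7.2e-09), IFIH1 (MDA5) by 3.09 ± 0.119 SE (adjusted p = 6.05e-11) and DDX58 (RIG-I) by 2.94 ± 0.126 SE (adjusted p = 1.98e-10). TICAM1, the adaptor of TLR3, was lower (−0.72 ± 0.113 SE, adjusted p = 1.49e-04), and the adaptor MAVS did not pass (−0.07, adjusted p = 0.587).

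The genes for RNA cap formation and eIF3, and those for enzymes and partners of IFITM proteins, had list medians near 0. Of 9 cap-methylation and eIF3 genes, 2 were higher (22.2%) and none lower, with a median log2 fold change of −0.10. Over all tested genes, 21.7% were higher and 20.3% lower, and nothing is read from this count. CMTR1, which adds the first ribose methyl group that marks a cap as self and keeps IFIT1 off it, rose from 79.4 ± 3.43 to 141 ± 3.31 CPM (0.83 ± 0.0957 SE, adjusted p = 8.47e-06), and EIF3A by 0.28 ± 0.0978 SE (adjusted p = 0.0312). Of 10 enzymes and partners of IFITM proteins, 1 was higher and 2 were lower, with a median of 0.03. The ubiquitin ligase NEDD4, which targets IFITM3 for breakdown, was higher by 0.51 ± 0.143 SE (adjusted p = 0.00982), and the kinase FYN was lower (−1.42 ± 0.207 SE, adjusted p = 7.39e-05). This list held 3 palmitoyltransferases and is not a full set of those that may act on IFITM proteins. The targeted ZDHHC15 was not on it. ZDHHC7 was lower by a small amount (−0.26 ± 0.0919 SE, adjusted p = 0.0337), and ZDHHC3 (−0.10, adjusted p = 0.422) and ZDHHC20 (0.05, adjusted p = 0.721) did not pass.

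Of 18 other antiviral effectors, 17 were tested and 14 were higher, with a median log2 fold change of 2.65. OAS2, which makes the signal that activates RNase L, was higher by 5.38 ± 0.149 SE (adjusted p = 3.69e-12), and TRIM22 by 5.09 ± 0.155 SE (adjusted p = 7.79e-12), both above every member. MX2, a barrier to viral nuclear entry, went from 7 and 1 counts to 174 and 128 (5.08 ± 0.449 SE, adjusted p = 5.82e-07). MX1, the influenza restriction factor of the same family, did not pass (0.77, adjusted p = 0.0564).

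The 5 protein-coding genes nearest in profile to the IFIT mean, by root mean square (RMS) difference of centred log2 CPM over the 4 samples, were FCRL2 (0.114), ETV7 (0.148), OAS1 (0.151), SLC15A3 (0.158) and CLEC7A (0.174). FCRL2 had 0 counts in shCON, so its place depends on the prior count. OAS1 was also near IFIT1, IFIT2 and IFIT3, though not IFIT5, in CPM, with 13.7 and 13.5 CPM in shCON and 291 and 232 CPM in shZDHHC15. Of the IFIT members, IFIT2 lay nearest to their mean (0.0804) and IFIT5 farthest (0.594). For the IFITM mean the nearest genes were SKOR2 (0.0086), HLA-F (0.0121), SERPINA3 (0.033), PDZD2 (0.0419) and GMPR (0.0507). HLA-F, a non-classical class I molecule, went from 12.3 and 12.8 CPM to 54.3 and 43.3 CPM. SKOR2 was at 0.165 and 0.178 CPM in shCON, which is 3 counts each, and at 1.07 and 0.866 CPM in shZDHHC15. Of the IFITM members, IFITM3 lay at 0.066 from their mean, IFITM2 at 0.479 and IFITM1 at 0.544. With 4 samples in 2 groups, such a profile is mainly the difference between the groups and the order of the shZDHHC15 samples.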

How the data were processed

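The authors deposited 1 table of raw read counts per gene for the 4 samples, not normalized, made per the submitters' processing notes with HISAT2, StringTie and SAMtools on hg38; versions, strand setting and the handling of reads that map to several places are not given in the sources used here. The labels give no batch, and 0 count columns were left out. All identifiers matched GENCODE 29. Genes were filtered with filterByExpr and fitted on group alone by the quasi-likelihood test of edgeR 4.0.16, run in R 4.3.3 beside limma 3.58.1, after TMM scaling, with Benjamini-Hochberg adjustment over 15817 genes at 0.05. CPM used the TMM-scaled library sizes. Each standard error (SE) is the absolute log2 fold change divided by the square root of the F statistic of the edgeR test. It borrows variance across genes and is not a spread measured from the samples of that gene alone. The scripts were tested on simulated data. Depth limits low genes: a count of 0 allows up to 3 counts, 0.153 to 0.178 CPM per library, covering counting error only. The 12 other settings tried were 3 other scalings, the Wald test of DESeq2 1.42.0, 2 filters, the older quasi-dispersion, a replicate block and each sample left out. Genes named were the members, ZDHHC15, tested neighbours within 100 kb, the 5 nearest profiles per family and, per list, the 3 called genes with the largest change plus those that define the list. MAVS, MX1, TICAM1, EIF3A, the marker genes, and the list genes given as not called were named after their values were seen. The members and lists were chosen with earlier results of these data known. Some list genes are not reported here.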

Additional observations from a re-analysis of the deposited data

How the results depend on the processing

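The members were chosen on this contrast, so their direction under refits of it is no sign of stability. Under the 12 alternatives the log2 fold change of each member moved by less than the spread between samples. For the fits with 1 sample left out this follows largely from arithmetic, since dropping 1 of 2 samples moves their mean by less than their SD. Nothing is read from it. The median over the 7 members was 2.87 to 3.19 with 1 sample left out and 3.01 to 3.12 under the other alternatives. The IFIT median was 4.03 to 4.51 and 4.26 to 4.37, and the IFITM median 1.69 to 1.95 and 1.80 to 1.90. With 1 sample left out, its group holds a lone sample that is assumed to vary like the other group. Over all tested genes, 2282 were higher and 2350 lower with no filter on low counts, against 3427 and 3217. The balance of directions depended on the scaling, with 3926 higher and 2545 lower by library size only and 3202 and 3458 with upper-quartile factors, against 3427 and 3217. Of the list genes, 6 were lower with a replicate block, against 3, and 2 to 6 with 1 sample left out (6 without shCON sample 1). Of the neighbours, 1 to 3 were lower with 1 sample left out (1 without shZDHHC15 sample 1), against 2. The labels do not say that the numbers pair samples, and deviations of same-numbered samples correlated at 0.0344 over 15817 genes and at 0.179 over the 10687 genes with a mean count of at least 100. The replicate block gave 3723 genes higher and 3502 lower and medians of 3.03, 4.28 and 1.82 for the 7, the IFIT and the IFITM members. With 2 samples a group, each SD rests on 1 difference, and genes with a few counts, such as the interferon ligands, cannot be compared closely at this depth.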
